A study of Mus musculus with 13 samples.

Results

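The 6 genes described here, Gfap, S100b, Pax2, Aqp4, Cd44 and Nes, are markers of retinal astrocytes. Their members were taken as every probe that is not a control and whose gene, from its RefSeq identifier or the symbol in its description, is 1 of these 6. This gave 11 probes among 41174 different probes, with 2 for Gfap, 3 for Aqp4, 3 for Cd44 and 1 for each of S100b, Pax2 and Nes. All 6 genes passed the filter on dim probes and stood among 32095 genes tested. RNA of mouse retina was measured on 13 arrays with 2 colours, each with a sample in Cy5 and a commercial pool of mouse RNA, Universal Mouse Reference RNA, in Cy3. The samples were 3 of retina without vessels (labelled non vasculature retina control and called nonvascular here), 4 labelled stalk and 6 labelled tip, and the question was how the tip and stalk of growing retinal vessels differ from each other and from the tissue around them. The labels give no strain, age, genotype or treatment for any of these groups. They do not say how the cells were collected or which samples share an animal, so p-values measure the spread between these samples, part of which may be technical.

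Astrocytes enter the retina from the optic nerve and spread over its inner surface as a network ahead of the vessels, and endothelial tip cells follow this network while stalk cells form the tube behind them. Pax2 is a transcription factor of the optic stalk that marks the lineage from its precursor stage. Nestin (Nes) and GFAP are intermediate filament proteins, of immature and of mature astrocytes. S100b is a calcium-binding protein of astrocytes, Aqp4 is the water channel of their endfeet on vessels, and Cd44 is a cell surface receptor for hyaluronan. None of these genes is exclusive to astrocytes: Aqp4 is also a gene of Mueller glia, and Nes of retinal progenitors and of cells of growing vessels. In RNA of mixed cells, fewer cells of a type and less RNA per cell cannot be told apart.

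Promoter sequence is shown for S100b, Nes and Gfap, but not for Cd44, the other member with a called difference. It was taken from the RefSeq promoter table (build GRCm38.p6), which held 5 of the 6 members, and runs from 250 bases before the annotated start to 30 bases after it, 5′ to 3′ on the strand of the gene. Capitals mark the matches, on either strand, to 3 motifs of factors known in astrocyte development. These are the short nuclear factor I site TTGGC, the STAT motif TTCNNNGAA and the SOX motif ACAAT.
S100b (chr10:76253586-76253865, plus strand): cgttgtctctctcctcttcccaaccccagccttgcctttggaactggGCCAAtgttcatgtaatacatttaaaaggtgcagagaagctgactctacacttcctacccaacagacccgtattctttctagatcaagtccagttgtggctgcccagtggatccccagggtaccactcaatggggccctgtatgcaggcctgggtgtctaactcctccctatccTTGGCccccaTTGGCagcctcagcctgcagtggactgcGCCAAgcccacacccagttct
Nes (chr3:87970843-87971122, plus strand): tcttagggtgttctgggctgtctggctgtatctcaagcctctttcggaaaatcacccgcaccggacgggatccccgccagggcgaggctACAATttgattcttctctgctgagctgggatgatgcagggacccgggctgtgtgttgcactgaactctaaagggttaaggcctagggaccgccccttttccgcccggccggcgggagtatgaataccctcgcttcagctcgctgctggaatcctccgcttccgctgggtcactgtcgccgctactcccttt
Gfap (chr11:102897171-102897450, minus strand): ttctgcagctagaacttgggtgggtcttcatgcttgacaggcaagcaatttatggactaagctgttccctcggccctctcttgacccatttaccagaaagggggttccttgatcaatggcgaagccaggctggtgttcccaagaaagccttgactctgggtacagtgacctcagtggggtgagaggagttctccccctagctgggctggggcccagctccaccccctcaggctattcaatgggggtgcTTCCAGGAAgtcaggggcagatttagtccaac
The S100b window held 4 matches to the nuclear factor I letters, with first bases at positions -203, -29, -19 and 9 from the start base, which is 0. The Nes window held 1 SOX match, at position -161, and the Gfap window held 1 STAT match, at position -2. Each match is a description of the letters only. Of 32851 promoter windows of the same length, 44.7% held TTGGC, 29.8% held ACAAT and 7.83% held TTCNNNGAA, and none of the 3 windows held more than 1 of these kinds of motif.

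Values below are log2 ratios of the sample over the reference, after background correction and loess normalization within each array; a difference of 1 is a change of 2-fold. Where a gene had several probes, the brightest stood for it. A difference was called when its limma p-value, adjusted with the Benjamini-Hochberg method over all genes tested, was under 0.05. Red signal cleared the scanner software's background test at 84.9% to 95.3% of the spots of an array. The median red signal less local background was 164 to 278 on the nonvascular, 97.2 to 139 on the stalk and 104 to 287 on the tip arrays. Every stalk array was dimmer than every nonvascular array. A fit with array brightness as a covariate therefore cannot fully separate brightness from this comparison. Vessel genes checked the labels: the mean log2 ratio of 10 endothelial markers was 0.42 to 0.72 on the nonvascular arrays, 2.91 to 3.09 on the stalk arrays and 2.52 to 2.86 on the tip arrays. The mean of 11 pericyte and smooth muscle markers was -0.81 to -0.67, 1.61 to 1.83 and 0.85 to 1.18 in the same order, and that of 10 ganglion cell markers was 2.67 to 3.03, -0.26 to 0.76 and 0.49 to 0.92. Per the file headers the arrays were scanned group by group, so the order of scanning and the groups cannot be told apart. Tip array 5 was scanned on another day, and leaving it out changed no call of a marker.

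In the stalk samples 4 of the 6 markers, S100b, Nes, Gfap and Cd44, were higher than in nonvascular retina and limma called none lower. In the tip samples 2, S100b and Nes, were higher and none was called lower; at an unadjusted p under 0.05 Aqp4 was lower in tip and no marker was lower in stalk. Between tip and stalk 1 marker, Gfap, differed, and it was lower in the tip samples. These counts stand against a high background in the comparisons with nonvascular retina. Among all genes 29.8% were called for stalk against nonvascular (11.2% higher, 18.6% lower), 27.9% for tip against nonvascular (11.1% higher, 16.8% lower) and 2.78% for tip against stalk (1.47% higher, 1.31% lower). The median difference over the 6 markers was 0.56 for stalk against nonvascular, 0.25 for tip against nonvascular and -0.11 for tip against stalk, beside medians over all genes of 0, -0.01 and 0. The 2 comparisons with nonvascular retina share the 3 nonvascular arrays.

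**Figure D1:**
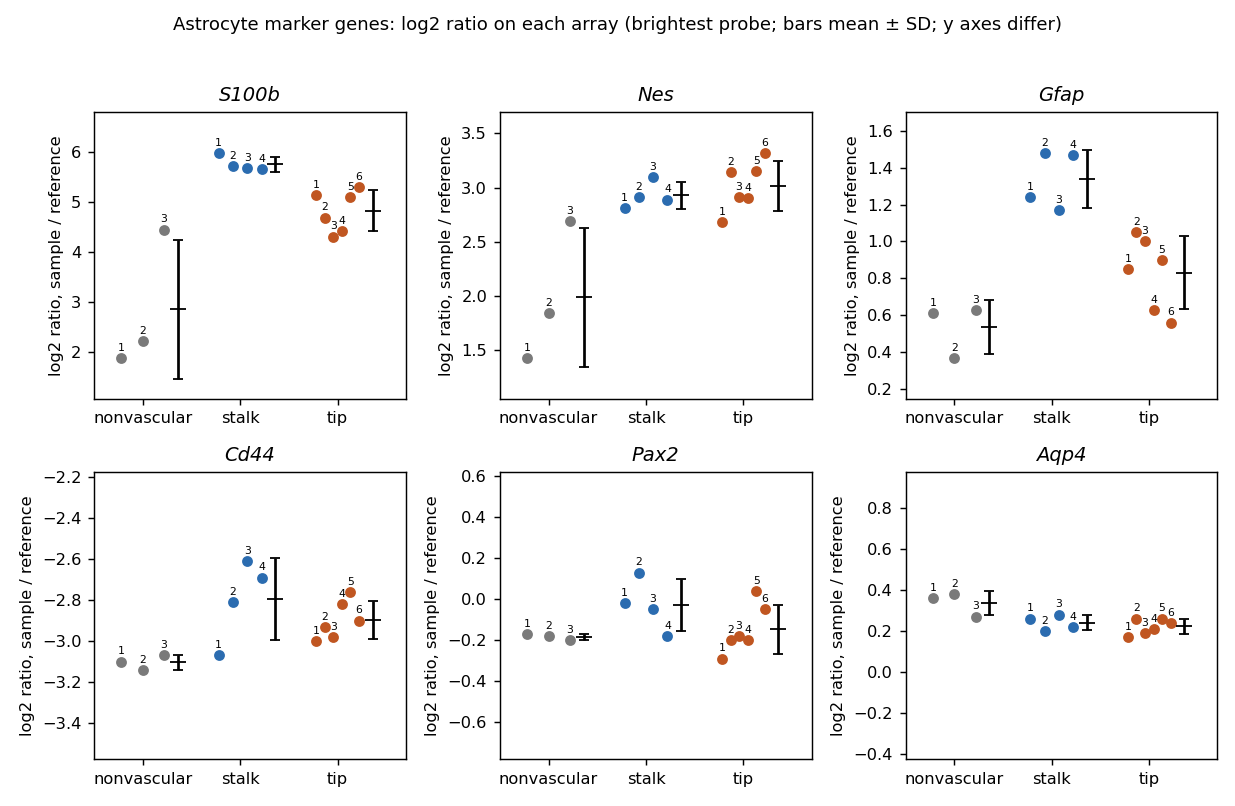
Log2 ratio of sample over reference (vertical axis, a different range in each panel) for the brightest probe of each marker on the 3 nonvascular, 4 stalk and 6 tip arrays; points are arrays numbered by replicate and bars are the mean ± SD. S100b on nonvascular array 3 was 4.45, far above 1.89 and 2.22 on the other two, while Pax2 and Aqp4 lay within narrow ranges on all 13 arrays.

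S100b had the largest differences of the 6 genes in both comparisons with nonvascular retina. Its log2 ratio was 1.89, 2.22 and 4.45 on nonvascular arrays 1, 2 and 3, and 5.98, 5.71, 5.68 and 5.66 on the 4 stalk arrays. On the 6 tip arrays it ranged from 4.31 to 5.29 with a median of 4.89. Every stalk array was above every tip and every nonvascular array, whereas nonvascular array 3 fell inside the range of the tip arrays. The mean was 2.85 ± 1.39 (SD, n = 3) in nonvascular retina, 5.76 ± 0.15 (SD, n = 4) in stalk and 4.82 ± 0.41 (SD, n = 6) in tip. S100b was 7.52-fold higher in stalk (difference 2.91 ± 0.47 SE, adjusted p = 3.84e-04) and 3.93-fold higher in tip (1.97 ± 0.44 SE, adjusted p = 0.00405) than in nonvascular retina. The probe was bright, with a red signal 28.5 to 218 times its local background on the nonvascular arrays, 336 to 514 times on the stalk arrays and 176 to 698 times on the tip arrays.

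The limma fit shared 1 estimate of spread among the 3 groups. The SD of S100b was 1.39 in nonvascular retina, 0.15 in stalk and 0.41 in tip. Against nonvascular retina, the SE and p-values therefore understate the spread of the nonvascular arrays. For tip against stalk, the shared estimate is larger than the spread within those groups. Nonvascular array 3 set much of the spread in these S100b values. Without it, the difference was 3.71 (adjusted p = 4.92e-07) for stalk and 2.77 (adjusted p = 3.21e-06) for tip. Without nonvascular array 1 it was 2.43 and 1.49 (adjusted p = 0.00243 and 0.0315). Between tip and stalk the S100b difference of -0.94 ± 0.40 (SE; 95% interval -1.81 to -0.07) did not pass the test over all 13 arrays, with an adjusted p of 0.242, although the groups did not overlap. It passed when nonvascular array 3 was left out (adjusted p = 0.0225) and when only the tip and stalk arrays were fitted (adjusted p = 0.0319), with the same difference of -0.94 in both.

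Nes, the gene of the intermediate filament protein of immature glia and progenitors, was higher in both vessel groups. It read 1.43, 1.84 and 2.69 on nonvascular arrays 1, 2 and 3 and 2.81, 2.91, 3.10 and 2.89 on the stalk arrays. The tip arrays ranged from 2.68 to 3.32 with a median of 3.03. All stalk arrays were above all nonvascular arrays, and the lowest tip array was level with nonvascular array 3. Group means were 1.99 ± 0.64 (SD, n = 3), 2.93 ± 0.13 (SD, n = 4) and 3.02 ± 0.23 (SD, n = 6). Nes was 1.92-fold higher in stalk (0.94 ± 0.23 SE, adjusted p = 0.00778) and 2.04-fold higher in tip (1.03 ± 0.22 SE, adjusted p = 0.00273) than in nonvascular retina. The stalk call was lost with array brightness as a covariate (0.61, adjusted p = 0.143), which itself differed between these groups. The nonvascular spread bears on Nes as well: the differences were 1.29 for stalk and 1.38 for tip without nonvascular array 3, and 0.66 for stalk without nonvascular array 1. As for S100b, the estimate of spread shared by the groups understates that of the nonvascular arrays. Tip and stalk differed by 0.09 (95% interval -0.34 to 0.52, adjusted p = 0.851).

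Gfap, the filament gene of mature astrocytes, was highest in stalk. Its brighter probe read 0.61, 0.37 and 0.63 on the nonvascular arrays and 1.24, 1.48, 1.17 and 1.47 on the stalk arrays. On the tip arrays it ranged from 0.56 to 1.05 with a median of 0.87. The stalk arrays lay above all others, and the tip arrays overlapped the nonvascular ones. Means were 0.54 ± 0.14 (SD, n = 3), 1.34 ± 0.16 (SD, n = 4) and 0.83 ± 0.20 (SD, n = 6) for nonvascular, stalk and tip. Stalk was 1.75-fold above nonvascular retina (0.81 ± 0.13 SE, adjusted p = 2.88e-04), and tip was 1.43-fold below stalk (-0.51 ± 0.11 SE, adjusted p = 0.0253). The tip difference from nonvascular retina, 0.29 ± 0.12 (SE; 95% interval 0.04 to 0.55), did not pass the test with an adjusted p of 0.0853. It passed in 3 of 26 alternatives, with the mean of both probes (0.20, adjusted p = 0.041), with array brightness as a covariate (0.33, adjusted p = 0.0486) and without tip array 6 (0.35, adjusted p = 0.0323).

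The Gfap call between tip and stalk was lost when stalk array 1 (-0.55, adjusted p = 0.0518), stalk array 2 (-0.46, adjusted p = 0.0696) or stalk array 4 (-0.47, adjusted p = 0.0623) was left out. The size of its differences depended on the scale. With the log ratios of the scanner software the differences were 1.40 for stalk and 0.58 for tip against nonvascular retina, and -0.82 for tip against stalk. On the red channel alone they were 1.5, 0.34 and -1.16, and with the mean of both probes 0.5, 0.20 and -0.29. This probe was dim, at 2.39 to 8.39 times its local background over the 13 arrays, and the offset added in the background correction draws ratios of dim probes towards 0.

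The other Gfap probe did not show the same pattern. It read -0.08, -0.06 and 0.05 on the nonvascular arrays and 0.28, 0.15, 0.21 and -0.01 on the stalk arrays, and -0.04 to 0.35 on the tip arrays with a median of 0.05. Its groups overlapped in every comparison, and none of its differences passed the test over all probes (stalk against nonvascular 0.19 ± 0.09 SE, adjusted p = 0.155; tip against stalk -0.07 ± 0.08 SE, adjusted p = 0.676). This probe carries the RefSeq accession of Gfap, was at 1.67 to 3.32 times its background, and spans 2450 bases in the coordinates of the files, which name no build. The brighter probe is named through its description and lies 1811 bases to the 3′ side of it. The reason for their difference was not tested.

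Cd44, the hyaluronan receptor, was below the reference pool on every array with its brightest probe. That probe read -3.10, -3.14 and -3.07 on the nonvascular arrays and -3.07, -2.81, -2.61 and -2.69 on the stalk arrays. The tip arrays ranged from -3.00 to -2.76 with a median of -2.92, all above the nonvascular arrays. In stalk Cd44 was 1.24-fold higher than in nonvascular retina (0.31 ± 0.10 SE, adjusted p = 0.0265), and stalk array 1 was level with the highest nonvascular array. In tip the difference of 0.21 ± 0.09 (SE; 95% interval 0.02 to 0.40) had an adjusted p of 0.104. This tip difference was called in 3 of 26 alternatives, with the mean of the 3 probes (0.25, adjusted p = 0.0113), with only the tip and nonvascular arrays fitted (0.21, adjusted p = 0.0343) and without stalk array 1 (0.21, adjusted p = 0.0313). The stalk call was lost in 9 of 26 alternatives, among them median centring (0.11, adjusted p = 0.561), array brightness as a covariate (0.22, adjusted p = 0.249) and the omission of stalk array 3 (0.25, adjusted p = 0.0718), stalk array 4 (0.28, adjusted p = 0.0682), nonvascular array 1 (0.31, adjusted p = 0.0696) or nonvascular array 2 (0.29, adjusted p = 0.0882).

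The 3 Cd44 probes fell into 2 kinds. The second brightest, like the brightest, is named through its description and was low against the reference, at -3.39, -3.10 and -3.28 on the nonvascular arrays, -2.86, -2.88, -2.78 and -2.67 on the stalk arrays and -2.96 to -2.44 on the tip arrays. It passed the test over all probes for tip (0.55 ± 0.11 SE, adjusted p = 0.00243) and stalk (0.46 ± 0.12 SE, adjusted p = 0.0124) against nonvascular retina, with no overlap in either comparison. The third probe, which carries the RefSeq accession of Cd44, stayed between -0.21 and 0.06 on all 13 arrays, and its differences were -0.02 for tip and 0.01 for stalk. It was dim, with a red signal 3.04 to 6.93 times its local background. Its normalized reference level was 7.12 to 7.60 on the log2 scale, against 10.86 to 11.45 for the other 2 probes. This limits what its ratios can show. The 2 probes named through their descriptions lie 21454 and 22694 bases to the 3′ side of the third in the coordinates of the files. None of the 3 probes differed between tip and stalk, at -0.10, 0.09 and -0.03 (adjusted p = 0.572, 0.695 and 0.798 over all probes).

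**Figure D2:**
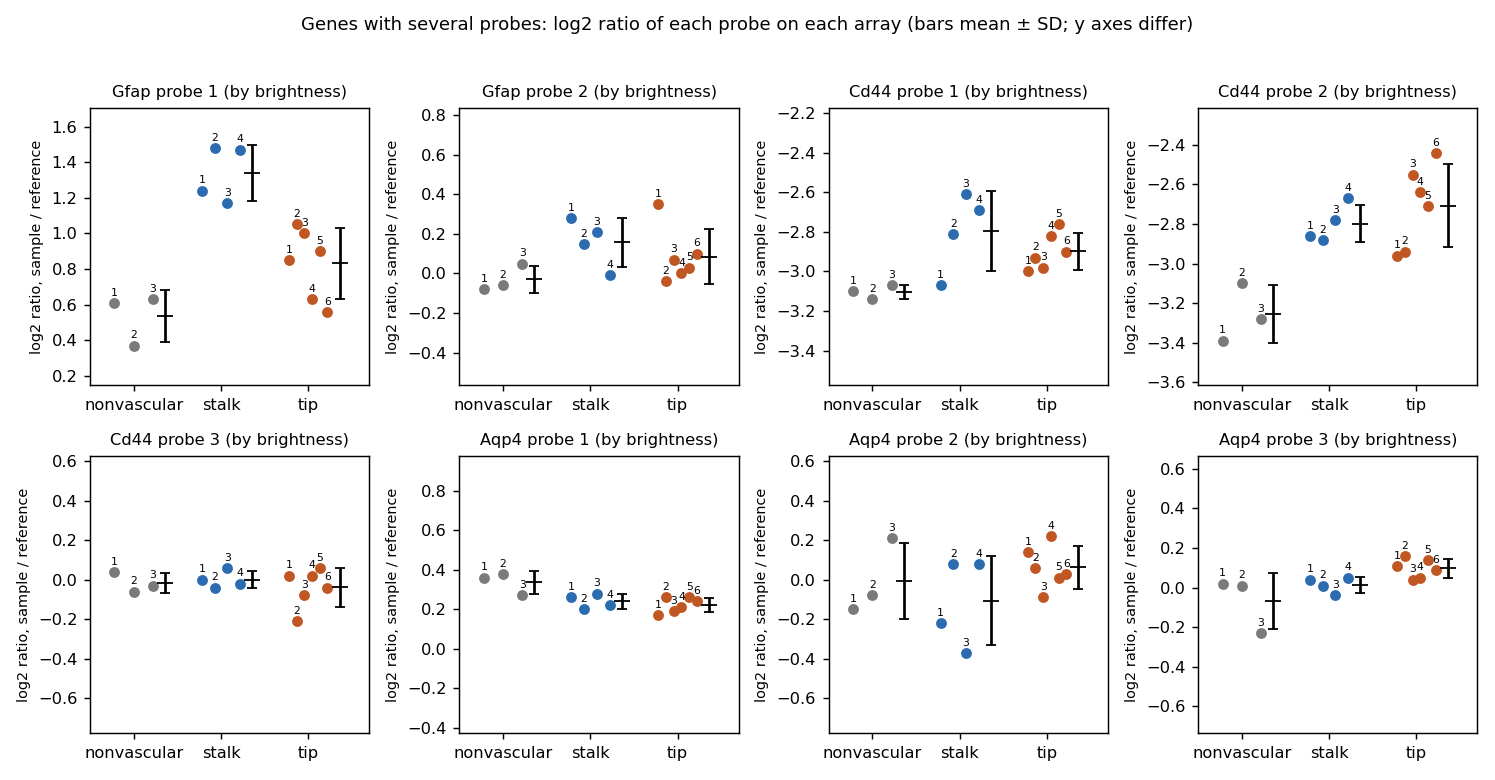
Log2 ratio of sample over reference (vertical axis, a different range in each panel) of the 2 Gfap, 3 Cd44 and 3 Aqp4 probes, ordered by brightness within a gene, on each array of the 3 groups; points are arrays numbered by replicate and bars are the mean ± SD. Gfap probe 1 separates the stalk arrays (1.17 to 1.48) from all others and Gfap probe 2 does not; Cd44 probe 3 stays between -0.21 and 0.06.

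Pax2, the lineage factor, gave no called difference. Its only probe read -0.17, -0.18 and -0.20 on the nonvascular arrays and -0.02, 0.13, -0.05 and -0.18 on the stalk arrays, and -0.29 to 0.04 on the tip arrays with a median of -0.19. The groups overlapped in all 3 comparisons. The differences were 0.15 for stalk against nonvascular (95% interval -0.03 to 0.33, adjusted p = 0.213), 0.04 for tip against nonvascular (-0.13 to 0.21, adjusted p = 0.790) and -0.11 for tip against stalk (-0.27 to 0.04, adjusted p = 0.431). The red signal of this probe was 1.74 to 2.73 times its local background on the 13 arrays. The scanner software counted it as well above background on all of them, but this defining marker of the lineage was dim in all 3 groups.

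Aqp4, the endfoot water channel, also gave no called difference over all 13 arrays. Its brightest probe read 0.36, 0.38 and 0.27 on the nonvascular arrays and 0.26, 0.20, 0.28 and 0.22 on the stalk arrays, and 0.17 to 0.26 on the tip arrays with a median of 0.23. The tip arrays were all below the nonvascular arrays, by -0.11 ± 0.04 (SE; 95% interval -0.21 to -0.02, adjusted p = 0.0667), and this difference changed sign on the red channel alone (0.28) and with the mean of the 3 probes (0.04). It was called with array brightness as a covariate (-0.13, adjusted p = 0.0411) and without nonvascular array 3 (-0.15, adjusted p = 0.0407). Stalk differed from nonvascular by -0.10 (adjusted p = 0.146) and tip from stalk by -0.02 (adjusted p = 0.860). The second probe gave 0.07, -0.10 and 0.17 for tip against nonvascular, stalk against nonvascular and tip against stalk, none of them called. The third was well above background on 5 of 13 arrays, with 0 of 4 stalk, 2 of 3 nonvascular and 3 of 6 tip arrays. Its differences in log2 ratio were 0.16 for tip against nonvascular (adjusted p = 0.0602 over all probes, with no overlap), in the opposite direction to the brightest probe, 0.08 for stalk against nonvascular and 0.08 for tip against stalk. With the scanner log ratio the first of these was 0.75. The mean normalized red level of the third probe, not divided by the reference, was 6.01 in stalk, 6.08 in nonvascular retina and 6.05 in tip (log2 scale). The arrays of the groups overlapped, and the means include arrays not well above background, so no bound on a fold change follows. For nonvascular retina and stalk the order of these means runs against the log2 ratio.

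**Figure D3:**
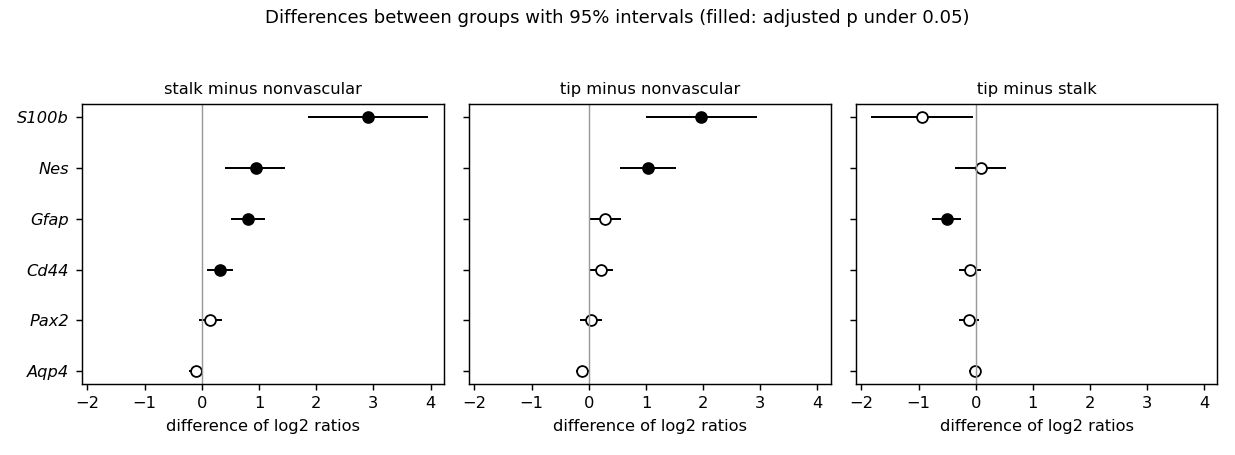
Differences of mean log2 ratios between groups (horizontal axis) for the brightest probe of each marker, with 95% intervals from the limma fit; filled points have an adjusted p under 0.05. S100b (2.91 and 1.97) and Nes (0.94 and 1.03) lie to the right in both comparisons with nonvascular retina, and Gfap (-0.51) is the filled point between tip and stalk.

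For S100b and Gfap the order of the group means was nonvascular, tip, stalk. Their neighbours in that order were separated by a called difference for nonvascular and tip in S100b, and for tip and stalk in Gfap. For Nes the order was nonvascular, stalk, tip, and for Cd44 and Pax2 it was nonvascular, tip, stalk. In these 3 genes the difference between the upper neighbours, tip and stalk, did not pass the test, and of the lower neighbours only those of Nes, nonvascular and stalk, did. Aqp4 ran the other way, from nonvascular through stalk to tip, with no neighbours that differed.

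With the brightest probe of each gene, the spread among the 3 nonvascular arrays was large for S100b and Nes. It was below the median of all genes for Aqp4, Cd44 and Pax2, and between these for Gfap. S100b covered a range of 2.56 and Nes of 1.26, against a median range of 0.19 over all genes. These ranges were larger than those of 99.9% and 98.9% of all genes. The range was 0.26 for Gfap (65.1%, and 0.66 with the scanner log ratio), 0.11 for Aqp4 (25.7%), 0.08 for Cd44 (14.4%) and 0.04 for Pax2 (3.74%). The Pax2 probe was close to background on these arrays, at 1.89 to 2.37 times it, which limits what its narrow range can show. That range was 0.04 to 0.28 over the alternatives. The other probes ranged over 0.36 and 0.25 (Aqp4 probes 2 and 3), 0.30 and 0.09 (Cd44 probes 2 and 3) and 0.13 (Gfap probe 2). In stalk the S100b and Nes ranges were 0.32 (64.1%) and 0.29 (60.3%), and in tip they were 0.98 (96.7%) and 0.63 (83.8%). The difference came from nonvascular array 3, where S100b was 2.39 and Nes 1.05 above the mean of the other two arrays, and the distances between arrays 1 and 2 were -0.33 and -0.41. Gfap on array 3 was 0.14 above that mean, and Pax2, Aqp4 and Cd44 were within 0.10 of it.

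Nonvascular array 3 also read high for a part of the other astrocyte lineage genes. From a list of 20 other genes of this lineage, 19 had a value on all 3 nonvascular arrays. Of these, 9 were more than 1 log2 unit higher on array 3 than on both other arrays, and none was so on array 1 or array 2. Over all 31963 genes with 3 values, 256 (0.801%) stood so on array 3, 9 on array 1 and 4 on array 2, while array 3 was simply the highest of the 3 in 33.4% of genes.

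The examples that follow were chosen after their values were seen. Pdgfra, the receptor through which astrocyte precursors respond to PDGF from ganglion cells, read -1.18, -0.74 and 1.94 on nonvascular arrays 1, 2 and 3, beside 2.31 to 2.63 on the stalk and 2.77 to 3.40 on the tip arrays. Slc1a3, the glial glutamate transporter, read 2.85, 2.31 and 4.61, and Aldh1l1, a folate enzyme used as an astrocyte marker, -0.10, -0.02 and 1.45. Cxcl12, a chemokine, read -2.92, -2.35 and -0.11, below its stalk range of 1.21 to 1.73. On array 3 Slc1a3 and Aldh1l1 thus lay within the tip or stalk range, and Pdgfra and Cxcl12 lay between the other nonvascular arrays and the vessel groups. Clu, the secreted chaperone clusterin, ran the other way at 0.60, 0.77 and -0.09. Gja1 (-3.41, -3.30 and -3.14) and Sparcl1 (4.41, 4.73 and 4.28), described below, were among the lineage genes without such a step. Slc1a3 stands in the Mueller glia list as well.

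Markers of other cells were read on the same array. Of 8 Mueller glia markers 3 stood more than 1 log2 unit higher on array 3 than on both others, with Rlbp1, the retinaldehyde-binding protein of these cells, at 1.97, 1.36 and 3.83. Their mean was 1.69 to 2.77 over the nonvascular arrays, with 2.77 on array 3. Of 9 retinal progenitor markers 3 stood so high, as did 1 of 10 endothelial markers, 0 of 11 pericyte and smooth muscle markers, 0 of 10 ganglion cell markers and 0 of 10 microglia and macrophage markers. The summed red level of the 6 astrocyte markers was 6080, 7380 and 15600 on nonvascular arrays 1, 2 and 3, 28800 to 35300 on the stalk arrays and 21700 to 30100 on the tip arrays, a sum made up mostly of S100b and Nes. That of the Mueller glia list was 15600, 10600 and 26400 on the nonvascular arrays, 31300 to 35700 on stalk and 19500 to 25400 on tip. All 6 astrocyte, 10 endothelial and 10 ganglion cell markers were well above background on all 13 arrays. The part of other glia, progenitors or vessel cells in the S100b and Nes values, and in those of the lineage list, was not tested.

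**Figure D4:**
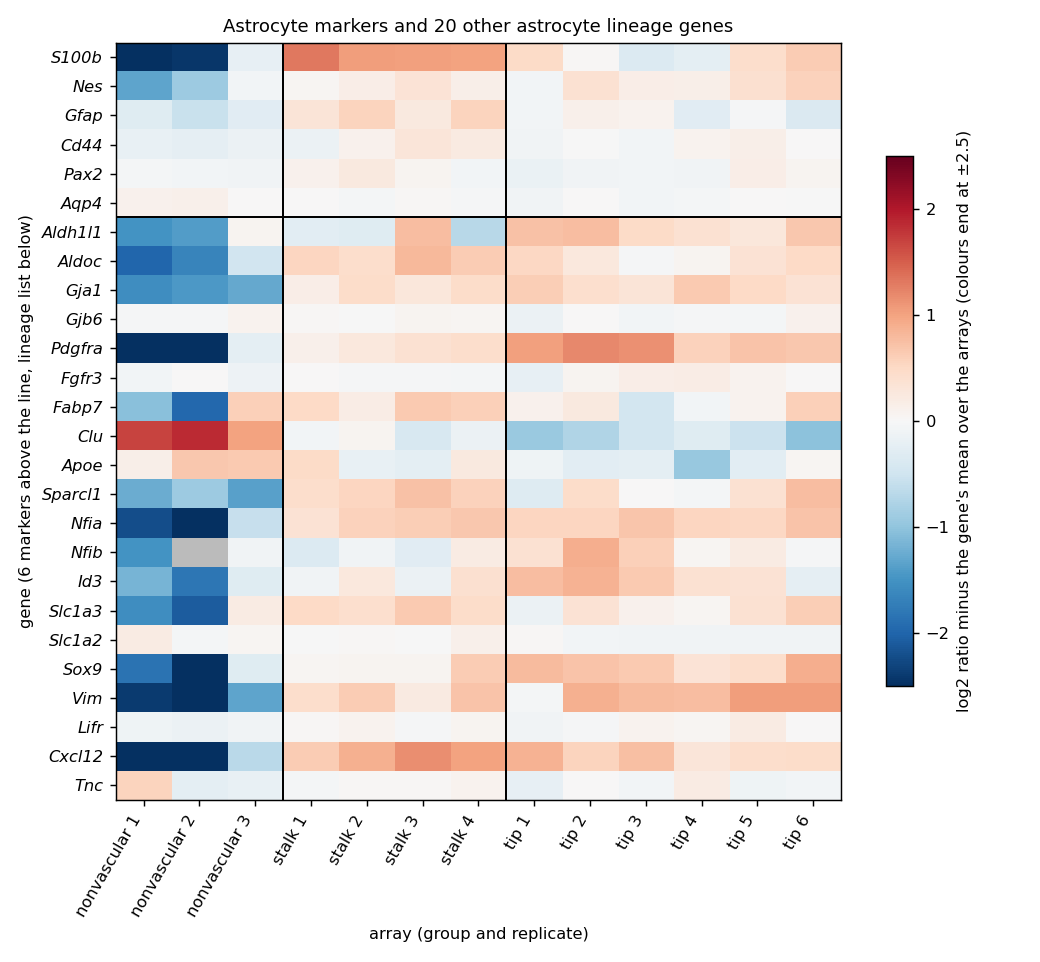
Log2 ratio minus the mean of the gene over the arrays (colour, with scale ends at 2.5 on either side and grey for a missing value) for the 6 markers, above the line, and 20 other astrocyte lineage genes on all 13 arrays. Nonvascular arrays 1 and 2 are low for S100b, Nes, Pdgfra, Slc1a3, Sox9 and others, nonvascular array 3 is closer to the stalk and tip arrays, and Clu is high on the nonvascular arrays.

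The lineage list showed where the 6 markers stood among other astrocyte genes, and 4 of its genes also stand in another list used here. Counts in this and the following lists stand beside the shares of all genes called. These were 27.9% for tip and 29.8% for stalk against nonvascular retina, and 2.78% for tip against stalk. Against nonvascular retina 12 of the 20 genes rose and 2 fell in tip, with a median difference of 1.37. In stalk 11 were higher and 1 was lower, with a median of 1.24. Between tip and stalk limma called none of them (1 at an unadjusted p under 0.05), and the median was -0.03. Without nonvascular array 3 the counts were 13 higher and 1 lower for tip, 13 higher and 1 lower for stalk, and 1 higher and 0 lower between tip and stalk, an alternative chosen after seeing the data.

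Gja1, the astrocyte and vessel gap junction connexin, was 3.73-fold higher in tip (1.90 ± 0.09 SE, adjusted p = 1.92e-08) and 3.40-fold higher in stalk (1.77 ± 0.10 SE, adjusted p = 5.55e-08) than in nonvascular retina. Vim, the filament protein vimentin of glia and mesenchymal cells, was 7.57-fold and 6.43-fold higher (adjusted p = 7.61e-06 and 2.92e-05). Clu fell by 2.19 in tip and by 1.66 in stalk (adjusted p = 2.60e-06 and 5.19e-05). Sparcl1, a secreted matrix protein of astrocytes and vessels, was 3.33-fold higher in stalk (adjusted p = 4.04e-05) and 2.59-fold higher in tip (adjusted p = 1.56e-04).

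The intermediate filament genes, the family of Gfap and Nes, moved in both directions. Against nonvascular retina, 5 of 15 rose and 5 fell in tip, and 6 rose and 5 fell in stalk, with medians of 0.15 and 0.12. The lower genes included neurofilament subunits: Nefm fell by 2.31 in tip and 2.44 in stalk, and Ina, alpha-internexin, fell by 3.46 and 3.78. Lmna, the nuclear lamin, was 2.60-fold higher in stalk and 2.23-fold higher in tip. Between tip and stalk 0 of the 15 were higher and 1, Gfap, was lower.

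In the S100 family 8 of 12 genes tested rose and 1 fell in tip against nonvascular retina, and 6 rose and 1 fell in stalk, with medians of 1.20 and 0.89. S100a13, a small calcium-binding protein, was 4.13-fold higher in stalk (adjusted p = 4.47e-09) and 2.79-fold higher in tip (adjusted p = 3.22e-08). S100a6 was 2.80-fold higher in tip and 2.91-fold higher in stalk. S100a10, the annexin A2 partner, fell by 0.42 in tip and 0.89 in stalk. S100a13 was lower in tip than in stalk (-0.57, adjusted p = 0.00117) and S100a10 was higher (0.47, adjusted p = 0.00801).

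Among 11 Pax and optic stalk regulators, the group of Pax2, 3 were higher and 2 lower in both tip and stalk against nonvascular retina, with medians of 0.15 and 0.10. Pax6, the eye field and retinal progenitor factor, fell by 0.73 in tip and 0.62 in stalk. Vax2, a ventral retina factor, fell by 1.08 and 1.38, and Vax1, an optic stalk factor, was 3.04-fold and 2.83-fold higher. Limma called none of the 11 between tip and stalk (2 at an unadjusted p under 0.05).

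The 15 aquaporin and endfoot genes, the group of Aqp4, had 3 higher and 2 lower in tip and 3 higher and 1 lower in stalk than in nonvascular retina, with medians of -0.01 and 0. The parts called were near those of all genes, 27.9% and 29.8%. Dag1, dystroglycan of the endfoot complex, was 1.48-fold higher in tip and 1.52-fold higher in stalk, and Dtna, dystrobrevin of the same complex, fell by 0.26 and 0.32. Aqp1, a water channel of other cells, was 3.19-fold higher in stalk, where the arrays ranged widely from -2.74 to -0.47 (SD 0.95). The tip arrays, at -2.65 to -2.13, lay within that range, and their difference from nonvascular retina was not called (0.90, adjusted p = 0.0747). Aqp11 was the single gene of the list called between tip and stalk, where it was lower (-0.65, adjusted p = 0.00439).

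Of 12 genes tested around Cd44 and hyaluronan, 6 rose and 3 fell in tip, and 5 rose and 2 fell in stalk, against nonvascular retina, with a median of 0.22 in both. Hyal2, a hyaluronidase, was 2.73-fold higher in stalk and 1.87-fold higher in tip. Msn and Ezr, moesin and ezrin, which tie Cd44 to actin, were 1.97-fold and 3.43-fold higher in tip. In stalk they were 1.82-fold and 2.72-fold higher. Spp1, osteopontin, a ligand of Cd44, fell by 1.58 in stalk and 0.82 in tip. Hyal2 was lower in tip than in stalk (-0.54, adjusted p = 0.00760) and Spp1 was higher (0.76, adjusted p = 0.0267).

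Across the 13 arrays, the genes whose log2 ratios followed each marker most closely were found among 15947 genes with a symbol and no missing value. These correlations describe arrays that fall into 3 groups, and both genes of a pair are read on the same arrays. S100b was followed by Plac9a (r = 0.979), Id1 (0.976) and Slc38a5 (0.975), which were also high on nonvascular array 3. The choice by correlation with S100b favours genes that share this step. Id1, for example, read -4.02, -4.12 and -1.28 on the nonvascular arrays, and Slc38a5, an amino acid carrier, 1.37, 1.25 and 4.12. Nes was followed by Bcan (0.976), which encodes the brain matrix proteoglycan brevican, Myh14 (0.965) and Pdzrn3 (0.965). Bcan read 1.63, 2.07 and 4.01 on the nonvascular arrays.

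The genes nearest to Gfap had no such step on nonvascular array 3, being chosen by correlation with a gene that lacked it. They were Prrg2 (0.913), Btbd3 (0.913) and Ly6c1 (0.909), and Ly6c1, a surface protein of endothelium and leukocytes, had group means of -1.93 in nonvascular retina, 0.04 in stalk and -1.11 in tip. For Cd44 they were Katnal2 (0.898), Olfr1355 (0.889) and Cutc (0.873). Pax2 was followed by Kif17 (0.894), Ccl11 (0.878) and 1300017J02Rik (0.876), and Aqp4 by Olfr920 (0.932), Nipal2 (0.924) and Crlf2 (0.912). For Pax2 and Aqp4 these values rest on log2 ratios that ranged over less than those of the other markers.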

How the data were processed

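Each of 13 arrays gave red (sample) and green (reference) spot intensities; per the file headers, the authors read them with Agilent Feature Extraction 8.5.1.1, and these mean intensities and local backgrounds are not normalized. The log10 ratio deposited in the same files is of processed red over green signals, dye-normalized by the authors' software, per the file headers. Linear ratios fill the deposited value table: at least 99.97% of probes on each array equalled that log ratio within 0.01 on the log2 scale, so scale and direction follow from it, with array medians of 1.06 to 1.15.

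From the deposited intensities, log2 ratios were computed in limma 3.58.1 (R 4.3.3) with normexp background correction (offset 50), loess within arrays and control spots at weight 0; outlier spots were set missing and repeat spots averaged. The offset draws ratios of dim probes towards 0. A gene was represented by its brightest probe on average, and genes well above background in red on at least 3 of 13 arrays were tested in 1 model with 3 group means. RefSeq accessions named 22072 probes directly, another accession 135 and the description 673; 18294 kept the name in the files. The fit was tested on simulated data. The number of arrays limits precision. No dye was swapped, so a dye effect common to all arrays would cancel only in differences.

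The 6 members and the gene lists were chosen with earlier results of these data known. Named were the members, the 3 genes most correlated with each, and up to 3 genes per list and comparison by smallest p. Alternatives covered normalization, background, filter, probe choice, covariates, the replicate block and each array left out.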

Additional observations from a re-analysis of the deposited data

Results flagged for a closer look

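Of 22 sets of values tested, 11 probes in the stalk and in the tip arrays, 2 held an array far from the others of its group by Dixon's test at the 95% level, which chance gives in about 1 of 20 sets. For the dimmer Gfap probe, tip array 1 read a log2 ratio of 0.35, while the other tip arrays read -0.04 to 0.10. For S100b, stalk array 1 read 5.98, above the 5.66 to 5.71 of the other stalk arrays. The nonvascular arrays, being 3, were not tested in this way.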

How the results depend on the processing

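Over 26 alternatives, S100b and Gfap kept their direction and their call for stalk against nonvascular retina (2.43 to 3.71 and 0.5 to 1.5), and so did Nes for tip against nonvascular (0.75 to 1.38). The ranges of S100b (2.54 to 2.92) and Nes (1.12 to 1.30) over the nonvascular arrays moved by less than their SD in the 19 alternatives that allow them. Those of the other markers moved by more in some alternatives: Pax2 in 5 (0.04 to 0.28), Aqp4 in 3 (0.03 to 0.19), Gfap in 2 (0.13 to 0.66) and Cd44 in 1 (0.05 to 0.34). The number of all genes called between tip and stalk was 893, and was 253 with median centring, 224 with array brightness as a covariate and 446 to 1606 with an array left out (446 without stalk array 1, 1606 without tip array 6; also 467 without stalk array 3, 529 without tip array 2 and 546 without tip array 3). The number of markers called for tip against nonvascular was 4 with the mean of all probes and 4 with the brightness covariate, and for stalk against nonvascular it was 2 with that covariate. Between tip and stalk it was 2 with only those groups fitted and 0 to 2 with an array left out. Same-numbered arrays did not deviate together (correlations -0.144 to 0.0828), so the replicate numbers do not pair the samples; with the replicate number as a block 1 marker was called for tip against nonvascular, where S100b was 1.84 with an adjusted p of 0.0515, and 0 between tip and stalk, where Gfap was -0.46 with an adjusted p of 0.111.

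Reversed signs were seen in differences that limma did not call. Aqp4 between tip and stalk became 0.01 with median centring, 0.22 on the red channel alone, 0.08 with the mean of all probes and 0.02 with the brightness covariate. Aqp4 for stalk against nonvascular became 0.04 with the scanner log ratio, 0.04 with the deposited table and 0.06 on the red channel, and for tip against nonvascular 0.28 on the red channel and 0.04 with the mean of all probes. Nes between tip and stalk became -0.05 with median centring and -0.02 with the replicate block. Pax2 for tip against nonvascular became -0.01 with the block, and was 0 to 0.06 with an array left out. The cause of these changes was not tested. The Pax2 probe, the dimmer Gfap probe and Aqp4 probes 2 and 3 were close to background, which limits what they can show. Cd44 probe 3 was also dim, at 3.04 to 6.93 times its local background.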
